A study of Saccharomyces cerevisiae with 6 samples.

Results

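The proteins of the cytosolic ribosome of Saccharomyces cerevisiae, the budding yeast, were followed across 3 strains. Spots were taken by name: a symbol of RPL or RPS, a number and, where present, the letter A or B. This gave 126 of the 6084 spots on the membranes, 72 for the large 60S subunit (RPL) and 54 for the small 40S subunit (RPS). Of the 126 symbols 56 ended in A, 54 in B and 16 in neither, and 53 proteins had both an A and a B spot.

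The strains were CM3260 (wt), Y18 (aft1) and Y18aft2delta (aft1aft2), all labelled minus iron. Aft1 and Aft2 are transcription factors that activate genes of iron uptake in iron-starved cells, and both mutant strains carry the aft1 mutation. Total RNA from growing cultures was copied and hybridised to nylon GeneFilters membranes, and each of the 3 strain comparisons was deposited for experiments 1 and 2, which makes 6 samples. Whether experiments 1 and 2 came from different cultures is not stated, so the p-values measure a spread that may be technical. No probe intensity or depth is known because ratios alone were used here. Each experiment holds 3 hybridisations, so the 3 comparisons of an experiment share them and are not independent.

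Each ribosome contains a single copy of nearly every one of these proteins, and most are encoded in yeast by a pair of duplicated genes, A and B, with nearly the same protein product. The transcripts of ribosomal protein genes make up a large part of the messenger RNA of a fast-growing yeast cell. They are known to be controlled together, through Rap1, Fhl1, Ifh1 and Sfp1 under the TOR and protein kinase A pathways, and to decline when growth slows or the cell is stressed.

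Values below are log2 ratios of mutant over reference after each column was centred on its median over all spots. The log base and the direction of the ratios were not stated; log2 and the order of the titles were taken, which makes the direction likely and not certain. The other direction would turn every sign. Changes are thus relative to the median spot. Centring removed 0.31 and 0.22 from experiments 1 and 2 of aft1 over wt, 0.40 and 0.625 from those of aft1aft2 over wt, and 0.09 and 0.42 from those comparing the mutants. Errors are standard errors of limma's fit over all 6084 spots with n = 2 hybridisations per strain, and the threshold was a Benjamini-Hochberg adjusted p of 0.05 over all spots. The spots of AFT1 (0.03 ± 0.25) and AFT2 (-0.33 ± 0.54) did not pass in aft1 against wt. In aft1aft2 they stood at -0.59 ± 0.25 and 0.775 ± 0.54, again short of the test, so they do not check the strain labels. Strain names below therefore mean the hybridisations labelled so.

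Ribosomal protein spots lay low in the strain labelled aft1. Their median was -0.95 against wt, or 1.94-fold lower, with quartiles of -1.17 and -0.63, while the quartiles of all spots were -0.30 and 0.30. The median was -1.01 in experiment 1 and -0.885 in experiment 2. Below 0 in both experiments were 115 of the 126 spots (91.3%), where 32.7% of all spots were, and 42 (33.3%) were at least 2-fold lower in both, where 1.96% of all spots were. Above 0 in both were RPS14B and RPS22B (32.8% of all spots were). The sign differed between experiments for RPL2B, RPL6B, RPL7B, RPL11A, RPL41A, RPL43B, RPS7B, RPS24A and RPS28B.

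Few single spots passed the test in aft1 against wt. RPS22A (YJL190C), which encodes a core protein of the small subunit, stood at -1.59 in experiment 1 and -1.505 in experiment 2. It fell to -1.55 ± 0.23 (SE, n = 2), 2.93-fold, with a limma adjusted p of 0.0348. RPL25 (YOL127W), whose protein sits at the exit of the peptide tunnel where the signal recognition particle docks, stood at -1.54 and -1.345. RPL25 fell to -1.44 ± 0.23 with an adjusted p of 0.0459. These were the 2 called spots of 126 (1.59%), beside 0.625% of all spots called lower, and 0 were called higher beside 0.838%. At an unadjusted p under 0.05, 94 members were lower (7.36% of all spots were) and 0 higher (8.07%). A fit without 1 hybridisation leaves its strain with 1. Such fits cannot show whether a call rests on a single hybridisation. Neither RPS22A nor RPL25 passed with the values as deposited or with each comparison fitted alone. Both passed with columns scaled, named spots alone, a robust prior and spots averaged by symbol. Over the 13 alternative fits RPS22A ran from -1.58 to -1.29 and RPL25 from -1.52 to -1.18. The members' median was -1.01 and -0.885 in the single experiments.

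RPL42B, for a protein of the large subunit near the exit site of transfer RNA, lay lower than RPL25 against wt but did not pass. It stood at -1.64 and -1.405 (mean -1.52 ± 0.30, limma adjusted p = 0.0776). At the other end, RPS22B stood at 0.09 in experiment 1 and 1.80 in experiment 2, a spread that leaves its mean of 0.95 ± 0.47 far from the threshold (adjusted p = 0.389). RPS14B, whose unspliced transcript is bound by its own protein product and then spliced less, was steadier at 0.40 and 0.575 (mean 0.49 ± 0.23, adjusted p = 0.377). RPL41A, for the smallest protein of the ribosome, was 0.52 in experiment 1 and -0.315 in experiment 2 (mean 0.10 ± 0.28).

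In the strain labelled aft1aft2 the spots were low against wt again, and they spread further apart. Their median was -0.85, or 1.80-fold lower, with quartiles of -1.20 and -0.425 beside -0.355 and 0.375 for all spots. Below 0 in both experiments were 109 of 126 (86.5%), where 30.6% of all spots were. Of the members 30 (23.8%) were called lower and 0 higher, beside 3.71% and 0.723% of all spots. At an unadjusted p under 0.05, 83 were lower (12.2% of all spots were) and 0 higher (9.24%). Above 0 in both experiments were 7, beside 30.7% of all spots. At least 2-fold lower in both experiments were 34 members (27.0%, beside 4.31% of all spots).

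The deepest fall was RPL8A (YHL033C), for a large-subunit protein needed to assemble the 60S particle, at -2.15 in experiment 1 and -2.71 in experiment 2. Its mean was -2.43 ± 0.27, 5.39-fold, with a limma adjusted p of 0.0114. Its partner RPL8B (YLL045C) fell to -2.09 ± 0.25 from values of -2.15 and -2.03 (adjusted p = 0.0137). RPS14A (YCR031C), whose protein lines the path by which messenger RNA leaves the small subunit, fell to -2.155 ± 0.24 from -2.06 and -2.25 (adjusted p = 0.0122). All 3 genes were therefore over 4-fold lower in both experiments, while RPS14B stood at 0.22 and 0.10.

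RPL16A (YIL133C) fell to -2.05 ± 0.26, from -1.95 and -2.15. RPL30 (YGL030W), whose protein represses the splicing of its own transcript, read -1.95 in each experiment. RPL9A (YGL147C) fell to -1.86 ± 0.25. Both genes of the small-subunit protein Rps0, needed for the last steps of small-subunit ribosomal RNA processing, fell too: RPS0B (YLR048W) to -1.86 ± 0.27 and RPS0A (YGR214W) to -1.68 ± 0.29. The experiments ordered them oppositely, RPS0A reading -1.26 and -2.10 and RPS0B -2.24 and -1.48. RPL7A fell to -1.64 ± 0.23, RPS4A to -1.545 ± 0.23, RPL18B to -1.54 ± 0.28 and RPS4B to -1.535 ± 0.24. The other 18 called spots lay between -1.485 for RPL19B and -1.15 for RPS13. They were RPL1A, RPL4A, RPL4B, RPL9B, RPL14B, RPL19B, RPL20A, RPL20B, RPL24B, RPL25, RPL37A, RPL42A, RPS3, RPS11A, RPS11B, RPS13, RPS19A and RPS22A.

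The highest spots of this comparison did not pass. RPS22B again differed between experiments, at -0.24 and 1.59 (mean 0.68 ± 0.47), as did RPS30B, which codes for a protein at the messenger RNA entry site, at 0.28 and 1.06 (0.67 ± 0.32). RPL41A was 0.89 and 0.40 (0.64 ± 0.28), the 3 having limma adjusted p-values of 0.436, 0.283 and 0.256. The count of 30 became 2 with the values as deposited (RPL8A and RPS14A), where the members' median was -0.33. It became 5 without aft1 replicate 1 or aft1 replicate 2, 7 without wt replicate 1, 9 without wt replicate 2 and 9 without aft1aft2 replicate 2, while RPL8A and RPS14A passed in all 13 alternative fits.

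**Figure D1:**
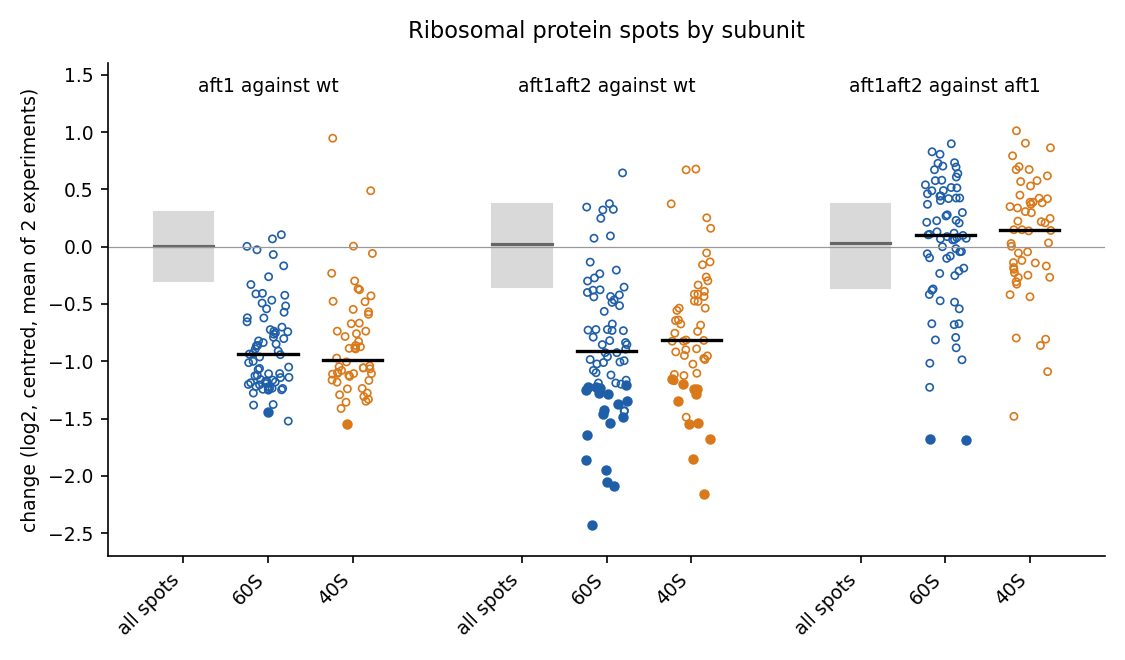
Change of every ribosomal protein spot (vertical axis, log2 ratio centred on all spots, mean of 2 experiments) in the 3 strain comparisons, as circles for the 60S and 40S subunits with black lines at their medians; filled circles passed the test. Grey boxes span the quartiles of all 6084 spots. Both subunits lie low against wt in both mutants, with medians from -0.99 to -0.82, and near 0 between the mutants.

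The hybridisations labelled aft1aft2 and aft1 were also set against each other, a comparison in which the AFT2 spot itself read 0.21 and 2.005 and so was not lower in the strain labelled as lacking AFT2. As a group the members lay near 0, with a median of 0.12 and quartiles of -0.22 and 0.44, beside -0.36 and 0.37 for all spots. Within the group they moved both ways: 42 (33.3%) were below 0 and 63 (50%) above 0 in both experiments, beside 33.3% and 33.8% of all spots. At least 2-fold lower in both were 3 members (2.38%, beside 3.83% of all spots), RPL8A, RPL8B and RPS0B. The experiments ranked the members alike, with a Pearson correlation of 0.824 across the 126 spots, which share their membranes, beside 0.554 across all spots. Over members and over all spots these correlations were 0.742 and 0.553 when aft1 was set against wt, and 0.778 and 0.449 when aft1aft2 was.

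RPL8A and RPL8B fell between the mutants, the 2 calls among 126 (1.59%, beside 2.6% of all spots called lower), and 0 were called higher beside 0.23%. RPL8A read -1.35 and -2.025 (mean -1.69 ± 0.27, limma adjusted p = 0.0333), and RPL8B read -1.50 and -1.855 (mean -1.68 ± 0.25, adjusted p = 0.0257). In aft1 against wt the same spots stood at -0.74 ± 0.27 and -0.41 ± 0.25, neither past the test, so most of their distance from wt in aft1aft2 lay between the mutants. Just outside the threshold was RPS0B at -1.48 ± 0.27 (adjusted p = 0.0502), followed by RPL16A at -1.23 ± 0.26, RPS0A at -1.09 ± 0.29 and RPL7A at -1.02 ± 0.23.

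On the other side the highest spot was RPS27A, for a zinc-binding protein of the small subunit, at 1.37 and 0.655 (mean 1.01 ± 0.27, adjusted p = 0.109). RPS30B was 0.90 ± 0.32 and RPL31B, for a protein beside the tunnel exit, 0.90 ± 0.25, followed by RPS10B at 0.86 ± 0.23, RPL27A at 0.83 ± 0.23 and RPL40A at 0.81 ± 0.24. None of these 6 passed the test. At an unadjusted p under 0.05, 16 members were lower and 19 higher (13.1% and 9.5% of all spots were). Calls were lost without aft1 replicate 1, aft1 replicate 2 or aft1aft2 replicate 2, each leaving 0, and with the values as deposited (0), where the members' median was 0.38. Without aft1aft2 replicate 1 there were 4 lower and 1 higher.

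**Figure D2:**
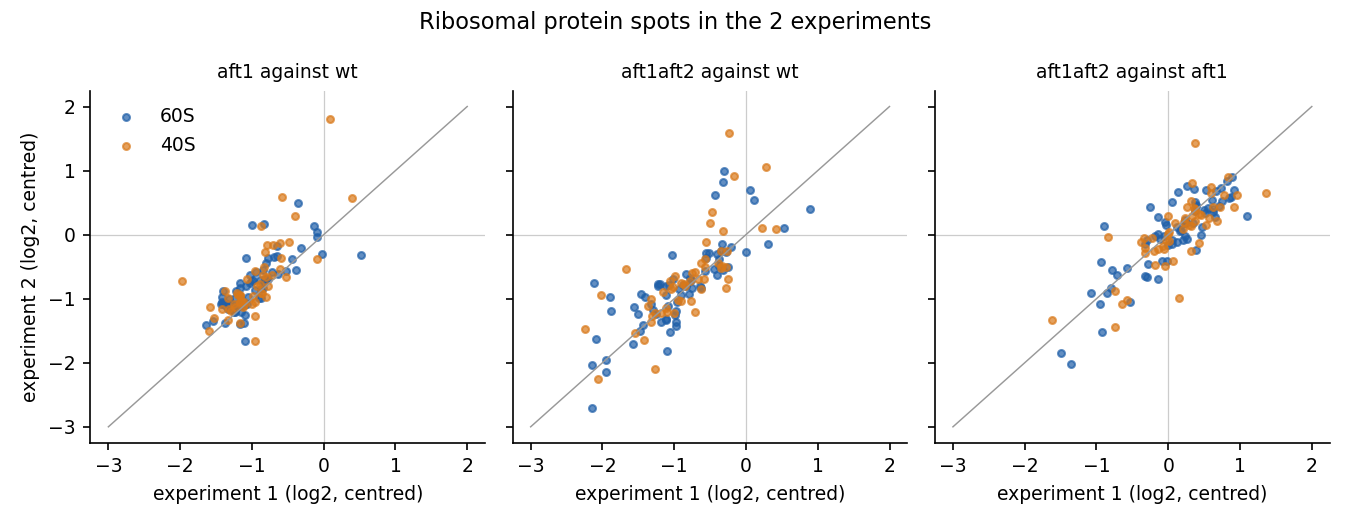
Each ribosomal protein spot in experiment 1 (horizontal axis) and experiment 2 (vertical axis), as log2 ratios centred on all spots, for the 3 strain comparisons; the diagonal marks equal values. The spots follow the diagonal with correlations of 0.742, 0.778 and 0.824, and RPS22B stands far above it in both comparisons with wt.

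The medians of the 60S and 40S subunits lay close together. In aft1 against wt the median was -0.94 for 60S spots (quartiles -1.18 and -0.65) and -0.99 for 40S spots (-1.13 and -0.61). The difference between these medians, 60S minus 40S, was 0.05, and its sign turned between experiments, from -0.10 to 0.05. In aft1aft2 against wt the medians were -0.91 and -0.82, with differences of -0.19 in experiment 1 and -0.06 in experiment 2. Of the 72 large-subunit spots 19 (26.4%) were called lower there and of the 54 small-subunit spots 11 (20.4%), beside 3.71% of all spots. Between the mutants the medians were 0.10 and 0.15. The differences between the subunits were not tested.

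Grouped by the place of the protein in the ribosome, the spots gave short lists, which were compared by their values alone. The 12 tunnel-exit spots (RPL17, RPL19, RPL26, RPL31 and RPL35 with A and B, RPL25 and RPL39) had a median of -1.13 in aft1 against wt. All 12 were below 0 in both experiments, where 91.3% of the members and 32.7% of all spots were. Their median was -0.76 in aft1aft2 against wt. Between the mutants 11 of the 12 were above 0 in both experiments, RPL19B at -0.54 ± 0.23 being the exception. The share above 0 in both was 50% of the members and 33.8% of all spots. The 3 spots of the 5S particle, which joins RPL5 and RPL11 with the small 5S ribosomal RNA, were likewise above 0 between the mutants, with RPL11A at 0.67 and 0.675, RPL11B at 0.73 and 0.725 and RPL5 at 0.23 and 0.18.

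So were the 3 spots for proteins made as fusions to ubiquitin, RPL40A, RPL40B and RPS31, with a median of 0.58 between the mutants, and those in the beak of the small subunit except RPS20, with RPS10A and RPS10B at 0.79 ± 0.24 and 0.86 ± 0.23. In aft1 against wt the ubiquitin fusions lay close together, from -1.16 to -1.001, and the beak spots from -1.28 to -0.78. None of the 10 spots of the 5S particle, the fusions and the beak passed the test in any comparison.

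The spots for the catalytic and GTPase centres ran the other way between the mutants for 4 of 6. RPL2B, whose protein supports the peptidyl transferase centre, stood at 0.00 ± 0.24 in aft1 and at -0.985 ± 0.24 in aft1aft2, both relative to wt. It read -1.07 and -0.905 between the mutants (adjusted p = 0.0939), and RPL2A was -0.79 ± 0.25. RPL3 was -0.42 ± 0.25 and RPL10, whose protein reaches into the same centre, -0.37 ± 0.23, while RPL12A and RPL12B, for the protein at the base of the stalk, were 0.49 ± 0.23 and 0.37 ± 0.23. RPL10 stood near 0 in aft1 against wt too, at -0.07 ± 0.23.

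In the small subunit, the 6 messenger RNA entry and decoding spots had a median of -0.66 in aft1 against wt. For aft1aft2 it was -0.21, from RPS3 at -1.24 ± 0.23, which fell, to RPS30B at 0.67 ± 0.32. That median was -0.41 in experiment 1 and -0.10 in experiment 2, and 0.30 with the values as deposited, so its sign depends on the centring. The 8 platform and messenger RNA exit spots ran from RPS14A at -2.155 to RPS28B at 0.37 ± 0.35 in aft1aft2 against wt, around a median of -0.665. RPS26A and RPS26B, at the messenger RNA exit, stood close together in aft1 against wt, at -1.33 ± 0.23 and -1.36 ± 0.25.

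**Figure D3:**
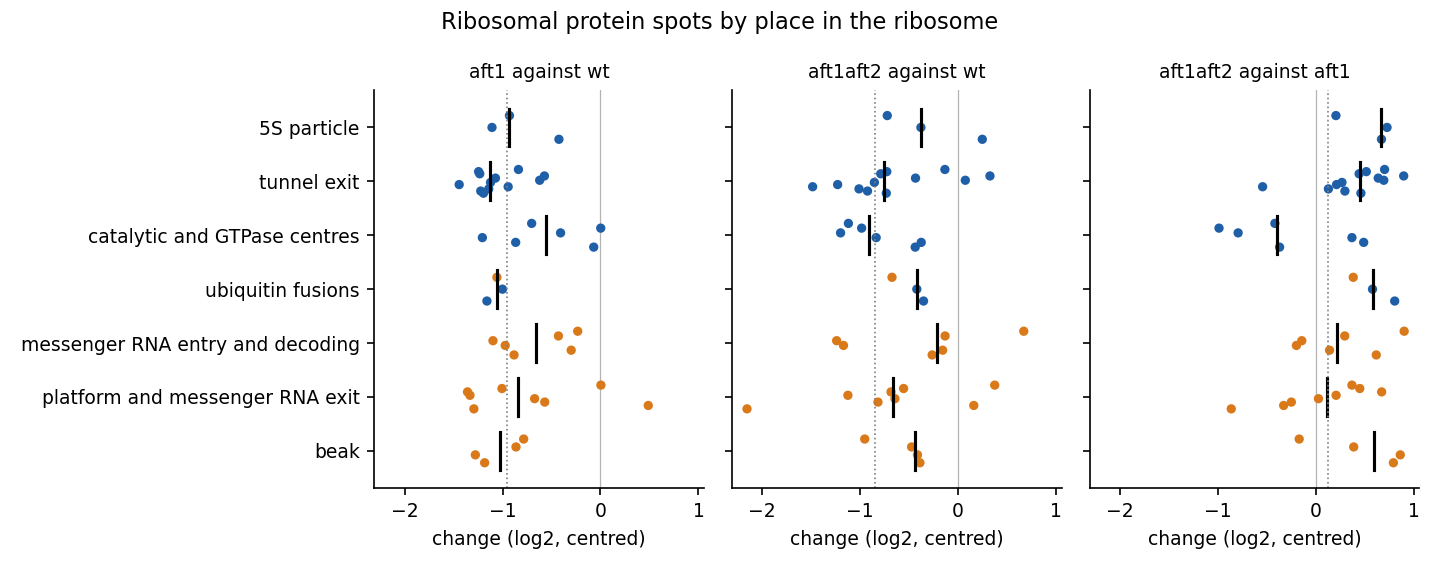
Change of ribosomal protein spots grouped by place in the ribosome (rows; blue 60S, orange 40S), as log2 ratios centred on all spots, with black bars at list medians and dotted lines at the median of all 126 spots. Between the mutants the tunnel exit, 5S particle and ubiquitin fusion spots lie above 0 except RPL19B, and 4 of the 6 spots of the catalytic and GTPase centres below.

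Paralogues were close for most proteins. The median absolute difference between the A and B spots of the 53 pairs was 0.21 for aft1 and 0.34 for aft1aft2, each against wt, and 0.26 between the mutants. Spots of different proteins differed by medians of 0.37, 0.56 and 0.49 over 5512 combinations. The correlation of A with B across the 53 pairs was weak in aft1 against wt (Pearson 0.155, Spearman 0.335), larger in aft1aft2 against wt (0.388 and 0.438) and largest between the mutants (0.7075 and 0.672). A and B spots share their membranes, and near-identical coding sequences may let a spot read its partner's transcript, which was not tested.

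The medians of all A and all B spots also lay close together. Among full pairs the A spots had a median of -1.08 and the B spots -0.89 in aft1 against wt, a difference of -0.10 in experiment 1 and -0.25 in experiment 2. In aft1aft2 against wt the medians were -0.89 and -0.815, and between the mutants 0.10 and 0.14. In aft1 against wt the A spot was the lower in both experiments in 19 pairs and the B spot in 13. The counts were 22 and 14 for aft1aft2 against wt, and 18 and 15 between the mutants. The 16 genes with no letter had medians of -0.91, -0.84 and 0.10 in the 3 comparisons, in the same order. Of the A spots 15 of 53 (28.3%) were called lower in aft1aft2 against wt, of the B spots 10 of 53 (18.9%) and of those with no letter 4 of 16 (25%). The share of all spots called lower there was 3.71%. Both partners were called lower in 7 pairs and 1 partner alone in 11. A partner that was not called could be as low, as RPL42B was at -1.435 beside the called RPL42A at -1.29.

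A few pairs stood well apart, with one sign in both experiments. In aft1 against wt the difference A minus B was -1.68 in experiment 1 and -3.31 in experiment 2 for RPS22, and -1.82 and -1.74 for RPS14. It was -1.14 and -1.16 for RPL6, where RPL6A read -1.23 and -1.125 and RPL6B -0.09 and 0.035. RPS28 had differences of -0.37 and -1.65, and the product of RPS28B is known to speed the decay of its own transcript. RPL22 had differences of -1.0 and -0.88, and the splicing of RPL22B is repressed by its own protein.

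In aft1aft2 against wt the difference A minus B was -2.28 and -2.35 for RPS14, -1.03 and -2.81 for RPS22 and -1.15 and -2.32 for RPL7. RPL6 followed with -1.02 and -1.89 and RPS19 with -0.71 and -1.58, so the A spot was the lower in each of these 5 pairs. Between the mutants A minus B was -1.34 and -1.54 for RPL7, -1.32 and -0.90 for RPL37 and -0.81 and -1.45 for RPL16. The order was opposite for RPL23, at 0.67 and 0.83, and RPL19, at 0.75 and 0.59. These differences come from 2 experiments and were not tested.

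At the other extreme, RPS4A and RPS4B both had a mean of -0.74 in aft1 against wt. In aft1aft2 they read -1.545 and -1.535. RPL35A and RPL35B were -1.23 and -1.24 in aft1 against wt, RPL4A and RPL4B -1.25 and -1.225 in aft1aft2 against wt, and RPL8A and RPL8B -1.69 and -1.68 between the mutants. The means of RPS16A and RPS16B between the mutants were both 0.22.

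**Figure D4:**
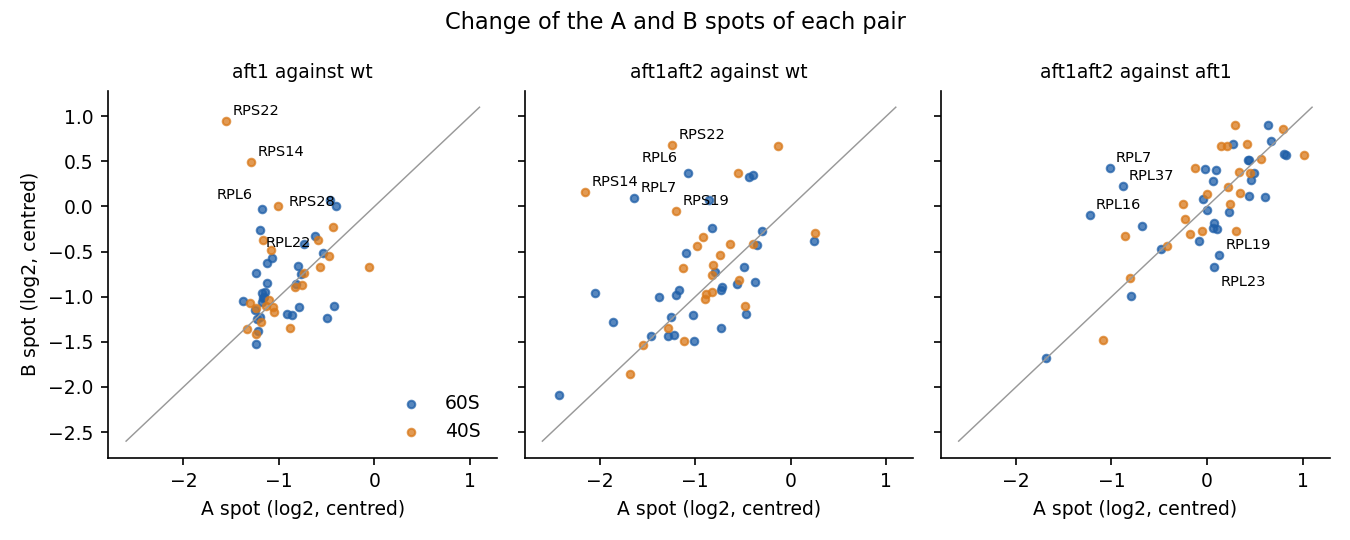
Change of the B spot (vertical axis) against the A spot (horizontal axis) of 53 paralogue pairs, as log2 ratios centred on all spots, in the 3 strain comparisons; the diagonal marks equal change and the 5 pairs with the largest gap of one sign are named. RPS14 and RPS22 lie far above the diagonal in both comparisons with wt, and RPL7, RPL37 and RPL16 between the mutants.

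Some of these genes lie next to each other. Of the adjacent couples in the R64 gene table, 7 had both spots and 4 of these are transcribed away from each other across a shared upstream region. RPL24A and RPL30 are such a couple, and stood at -0.73 and -1.95 in aft1aft2 against wt. RPS22A lies between RPS14B, towards which it is transcribed, and RPL39, from which it is transcribed away. In aft1 against wt these 3 spots read 0.49, -1.55 and -0.84, so the lowest member and the second highest are neighbours. Both RPS16 and RPL13 couples were closer than RPL24A and RPL30 in aft1aft2 against wt. There RPS16B and RPL13A stood at -0.95 and -0.82, and RPS16A and RPL13B at -0.825 and -0.24. In aft1 against wt the gaps were more alike. RPS16B and RPL13A read -1.17 and -0.80, RPS16A and RPL13B -1.05 and -0.66, and RPL24A and RPL30 -0.79 and -1.28. Coordinates are not printed because the build behind the membranes is not given in the sources used here.

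**Figure D5:**
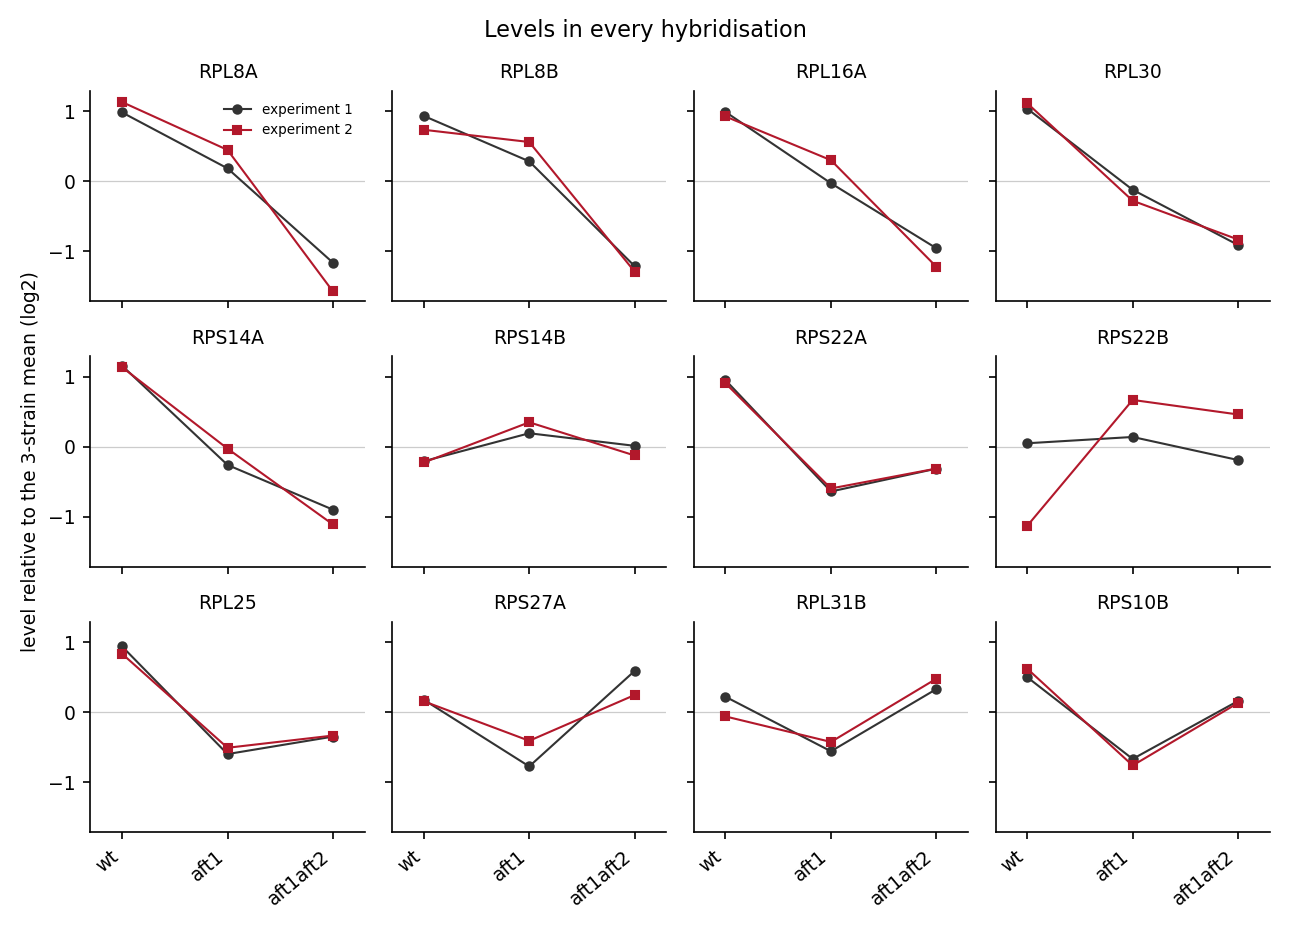
Level of 12 ribosomal protein spots in every hybridisation, as log2 values relative to the mean of the 3 strains of that experiment (vertical axis), for wt, aft1 and aft1aft2 (horizontal axis) in experiments 1 (circles) and 2 (squares). RPL8A, RPL8B, RPL16A, RPL30 and RPS14A step down from wt to aft1 to aft1aft2 in both experiments. RPL25, RPS22A, RPS10B, RPS27A and RPL31B are lowest in aft1, and the order of the strains differs between experiments for RPS22B.

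The levels in each strain, relative to the mean of the 3 strains of an experiment, sum to 0 in each experiment, so a shift in one strain moves the others. RPL8A stood at 0.98 and 1.13 in wt, 0.18 and 0.45 in aft1 and -1.17 and -1.58 in aft1aft2. RPL8B ran from 0.93 and 0.735 through 0.28 and 0.56 to -1.22 and -1.295. Both spots were named because they passed the test on these same levels. RPS22A stood at 0.95 and 0.91 in wt, -0.64 and -0.60 in aft1 and -0.31 in aft1aft2 in each experiment, with aft1 the lowest. RPS22B read 0.05 in wt in experiment 1 and -1.13 in experiment 2, while aft1 and aft1aft2 read 0.14 and -0.19 in experiment 1 and 0.67 and 0.46 in experiment 2.

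Other genes of ribosome function were read in the same way. The 5 spots of the ribosomal stalk, which calls elongation factors to the ribosome, had medians of -0.29 in aft1 and -0.70 in aft1aft2, each against wt, with 0 calls by limma (1 and 2 lower at an unadjusted p under 0.05). In aft1aft2 the stalk median was -0.32 in experiment 1 and -0.70 in experiment 2. RPP0, the base of the stalk, was -0.81 ± 0.23 in each. The 48 ribosome biogenesis spots had medians of -0.28 and -0.24, and of -0.02 and 0.28 with the values as deposited, so the sign in aft1aft2 depends on the centring. Of the 48, 1 and 2 were called lower, beside 0.625% and 3.71% of all spots. Lower at an unadjusted p under 0.05 were 9 in aft1 and 6 in aft1aft2 (7.36% and 12.2% of all spots were), with 0 higher in either. Below 0 in both experiments were 54.2% and 56.2% of the 48, beside 32.7% and 30.6% of all spots. DRS1, a helicase for 60S assembly, fell in both, to -3.05 ± 0.28 and -4.12 ± 0.28, and NOP1, which methylates ribosomal RNA, in aft1aft2 against wt to -1.45 ± 0.23. Against wt, 0 calls were made among the 12 chaperones of single ribosomal proteins (medians 0.00 and -0.03), the 8 RNA polymerase I spots (-0.095 and 0.17), the 15 regulators of ribosomal protein genes (0.06 and 0.235) and the 64 mitochondrial ribosomal proteins (-0.03 and 0.11). In aft1aft2 the RNA polymerase I median was -0.29 in experiment 1 and 0.20 in experiment 2, and that of the regulators -0.01 and 0.47, so neither has a settled sign. With the values as deposited the medians of these 4 lists lay above 0 in both strains. At an unadjusted p under 0.05 the chaperones had 1 lower in aft1, and 1 lower and 1 higher in aft1aft2. RNA polymerase I had 0 in either strain. The regulators had 1 higher in aft1, SFP1 at 0.74 ± 0.24, and 1 lower and 1 higher in aft1aft2. The mitochondrial proteins had 3 lower and 2 higher in aft1 and 5 higher in aft1aft2. Between the mutants these 6 lists had 0 calls by limma, with medians of -0.25 for the stalk, 0.05 for biogenesis, 0.02 for the chaperones, 0.105 for RNA polymerase I, -0.08 for the regulators and 0.20 for the mitochondrial proteins. With the values as deposited the stalk stood at 0.0067 and the regulators at 0.175, so these signs turn. At an unadjusted p under 0.05 biogenesis then had 2 lower and 4 higher and the mitochondrial proteins 6 higher, while the stalk had 1 lower, chaperones and regulators 1 each way and RNA polymerase I 0.

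The 10 elongation factor spots, some of whose products carry transfer RNA to the ribosome or move it along, separated the mutants. Their median was -0.06 in aft1 against wt with 0 calls, also at an unadjusted p under 0.05. In aft1aft2 against wt it was -1.16 with 5 of the 10 called lower, beside 3.71% of all spots. These included YEF3 at -1.55 ± 0.24 and EFT1 at -1.48 ± 0.23. Between the mutants the median was -1.11 with 4 called lower, led by YEF3 at -2.08 ± 0.24, beside 2.6% of all spots. TEF1 and TEF2, and EFT1 and EFT2, encode identical proteins, so their spots may read each other.

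Genes that yeast is known to induce under stress lay high where the ribosomal protein spots lay low in aft1. Their 23 spots had a median of 1.04 in aft1 against wt, with rises of HXK1, HSP104, TPS2 and TSL1 by limma (0.838% of all spots were called higher). At an unadjusted p under 0.05, 17 were higher and 0 lower (8.07% and 7.36% of all spots were). In aft1aft2 against wt the stress list was split around a median of 0.21. There 13 spots were above 0 and 9 below 0 in both experiments (30.7% and 30.6% of all spots were). CTT1, HSP42, HSP78 and TSL1 were called higher and 0 lower (0.723% and 3.71% of all spots were). At an unadjusted p under 0.05, 9 were higher and 5 lower (9.24% and 12.2% of all spots were). Between the mutants the median of the stress list was -0.85, with falls of GLK1, SSA4, HXK1, HSP26 and TPS2 (2.6% of all spots were called lower). Here 13 were lower and 2 higher at an unadjusted p under 0.05 (13.1% and 9.5% of all spots were). Mating-type markers moved as well. The 4 alpha markers ranged from -1.85 to -0.59 in aft1 against wt, where SAG1 was called lower (0.625% of all spots were). In aft1aft2 against wt they ranged from -2.85 to -1.34 and all 4 fell (3.71% of all spots were called lower). The 6 a markers ranged from -1.54 to 0.42 and from -1.26 to 0.94 with 0 calls, with 1 lower in the first comparison and 1 lower and 2 higher in the second at an unadjusted p under 0.05. The part of the stress and mating-type genes in the ribosomal protein values was not tested, and in RNA from whole cultures fewer cells of a kind cannot be told from less RNA per cell.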

How the data were processed

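Per the labels' protocols, membranes were exposed to a phosphor screen for 3 days and spots were measured in PATHWAYS. The authors deposited 1 log ratio per spot for each of 6 samples, taken here as log2; how membranes were normalised is not given in the sources used here. All 6 columns were used and 0 were left out. Symbols came from the platform table, which gave 5523 of 6084 spots 1 symbol and 561 none; all named spots (100%) matched the R64 gene table.

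Signs were turned to mutant minus reference and each column was centred on its median. Within an experiment the log ratios of the 3 comparisons closed within 0.01 at every spot, so each experiment holds 3 hybridisations. The titles number the experiments and this closure shows that comparisons of one number share hybridisations, so experiment was kept as a block. Least squares gave strain levels. A model of strain plus experiment was fitted with limma 3.58.1, run in R 4.3.3 (2 residual degrees of freedom, prior 4.25), two-sided, with Benjamini-Hochberg adjustment over all spots. The fit was tested on simulated data.

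The members and all gene lists were chosen with earlier results of these data known. Named with values were members past the threshold (beyond 12, the largest), the 3 lowest and 3 highest of each comparison, the 5 pairs with the largest A minus B of one sign in both experiments and the 2 with the smallest, and members of the lists of place in the ribosome. Lists were described by counts and medians, with no set test. Other members, neighbours and genes named in the text were chosen after their values were seen. RRP9, RRP15 and GPH1 of the lists have no spot of that name. Alternatives were values as deposited, scaled columns, each hybridisation or experiment left out, no block, each comparison fitted alone, a robust prior, named spots alone and spots averaged by symbol.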

Additional observations from a re-analysis of the deposited data

Results flagged for a closer look

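RPL8A and RPL8B differed between the mutants by the direct test of aft1aft2 against aft1. Their differences were -1.69 (adjusted p = 0.0333) and -1.68 (adjusted p = 0.0257) by limma, lower in both experiments. Over 13 alternative fits RPL8A kept its call in 8, with adjusted p-values from 0.00926 to 0.45, and RPL8B in 9, with 0.00531 to 0.416. Groups of 2 hybridisations are too small to look for single samples that stand apart.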

How the results depend on the processing

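Counts of called members depended on the setting more than the medians did. For aft1 against wt the 2 lower calls became 43 with columns scaled, 5 with named spots alone, 0 with each comparison fitted alone and 0 as deposited. Without each hybridisation in turn they ranged from 0 to 43. For aft1aft2 against wt the 30 became 12 fitted alone, 2 as deposited and 5 to 27 with 1 hybridisation left out. For aft1aft2 against aft1 the 2 became 1 fitted alone, 0 as deposited and 0 to 4 with 1 left out, where higher calls ranged from 0 to 1. With no replicate block the counts were 88, 79 and 15 lower and, between the mutants, 15 higher; that fit counts 3 residual degrees of freedom where the ratios leave 2, so its errors are too small. Other counts of members stayed within 1.5 times. No setting reversed a called value. A fit without 1 hybridisation leaves its strain with 1, so a call lost there may also reflect lost residual degrees of freedom.

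As deposited, every median moves up by what centring removed. The medians of all members, 60S, 40S, A, B and genes with no letter were then -0.69, -0.68, -0.73, -0.82, -0.63 and -0.65 in aft1 against wt. In that order they were -0.33, -0.395, -0.30, -0.38, -0.30 and -0.32 in aft1aft2 against wt and 0.38, 0.35, 0.40, 0.355, 0.39 and 0.35 between the mutants. Scaled columns gave -0.75 for 40S and -0.77 for genes with no letter in aft1aft2 against wt. Between the mutants they gave 0.18 for all members, 0.18 for 60S, 0.23 for 40S and 0.18 for B, and 0.23 for the median absolute A minus B.

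From experiments 1 and 2, in that order, 40S medians were -0.96 and -0.91 (aft1 against wt), -0.775 and -0.74 (aft1aft2 against wt) and 0.23 and 0.14 (between the mutants). A medians were -1.09 and -0.98 in aft1 against wt and 0.23 and 0.0783 between the mutants, and medians of genes with no letter -0.73 and -0.79 in aft1aft2 against wt. Between the mutants medians ran from 0.13 to 0.19 for all members, 0.12 to 0.15 for 60S and 0.125 to 0.14 for B. The median absolute A minus B was 0.34 to 0.43 in aft1aft2 against wt and 0.26 to 0.27 between the mutants. Without intensities no limit of signal over background can be given. Where no cause is named, the cause was not tested.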
